A study of Mus musculus with 12 samples.

Results

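A set of 10 transcripts of the choroid plexus epithelium was followed through RNA-seq of the mouse ventral hippocampus. They were Ttr, Folr1, Kcnj13, Clic6, Kcne2, Enpp2, Mfrp, F5, Cldn2 and Calml4, and all 10 were found by symbol among the 13951 gene identifiers of the expression table. The genes were chosen by their wide and joint variation in level over these same 12 libraries, so their ranges, the order of the libraries and their covariation are given below as a description, without a test. The material was polyadenylated RNA of the right hippocampus, of which the ventral portion was taken, from C57BL/6J mice aged 12 to 16 weeks, with no treatment named in the labels. There were 12 libraries in 4 groups of 3: females labelled wild type (WT), females labelled Angelman syndrome (AS), WT males and AS males. Loss of the maternally inherited UBE3A gene causes Angelman syndrome, a disorder of brain development. The labels do not state which mutation the AS mice carried. The labels give the tissue as hippocampus, and choroid plexus is not named as part of any sample.

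The choroid plexus is a folded, vascular tissue that floats in the brain ventricles. Its epithelium secretes most of the cerebrospinal fluid and, through its tight junctions, forms the barrier between blood and that fluid. In the temporal horn of the lateral ventricle it lies against the hippocampus, and hippocampal neurons and glia do not make most of its characteristic proteins.

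Levels are given as log2(abundance + 1), where abundance is the back-transformed deposited value. The authors' normalization gave the middle of the distribution the same set of values in every library, so a level there is in effect a rank. Of the values between 2 and 5 on the deposited natural log scale in the first library, 100% occurred in all 12 columns, and above 6 (8.66 on the log2 scale) none did. The highest levels of Ttr and Enpp2 lie above that limit. No read counts were given, so the depth of a library is unknown. The library labelled WT female replicate 1 stood apart on its sex-linked genes. Xist, the RNA that coats the inactive X chromosome, was at 0.35 in it, against 6.00 to 6.44 in the other females and 0.17 to 0.52 in males. Its Y-linked transcripts were at 1.02 or lower, within the female range of 0.15 to 1.47 and below the 2.70 to 6.06 of males. The range of the differences of the 10 genes is therefore also given without this library for each contrast that uses it. Ube3a itself was at 3.99 to 4.34 in the 6 WT libraries and at 3.78 to 4.31 in the 6 AS libraries. These ranges overlap, and without the mutation it cannot be said whether this gene checks the genotype labels.

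The 10 genes are all annotated as protein coding on GRCm38. Folr1 lies on chromosome 7 (101858331 to 101870788), Kcnj13 on 1 (87386363 to 87394729) and F5 also on 1 (164151838 to 164220277). Enpp2 lies on chromosome 15 (54838901 to 54952892), Mfrp on 9 (44101729 to 44109187), Calml4 also on 9 (62858080 to 62875921) and Cldn2 on X (139800828 to 139811386). Kcne2 (92292389 to 92298129) and Clic6 (92485736 to 92541243) are neighbours on chromosome 16, 188 kb apart on the plus strand. The 2 genes of the table that lie between them had narrow ranges, 0.48 for Smim11 and 0.41 for Rcan1, against 4.52 for Kcne2 and 4.60 for Clic6. Of the exonic bases of Kcnj13, 49.1% are shared with Gigyf2 on the opposite strand, and whether the authors' counting used strand is not given in the sources used here. Gigyf2 ran only from 4.75 to 5.09. Of the exonic bases of Mfrp, 36.7% are shared with C1qtnf5 on the same strand, so the split of reads between these genes is uncertain. C1qtnf5 ran from 1.71 to 2.81 and was lowest in WT female 2, the library in which Mfrp was highest.

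The upstream sequences of 4 of the genes are shown because these genes varied together over the libraries, and a reader may want to see whether their promoters look alike. They come from RefSeq on GRCm38.p6, are written 5′ to 3′ on the strand of the gene, and cover up to 250 bases before the start. Capitals mark a match to TAATCC, the core motif of the OTX homeodomain factors, searched on both strands.
Kcnj13 (chr1:87394730-87394979, minus strand): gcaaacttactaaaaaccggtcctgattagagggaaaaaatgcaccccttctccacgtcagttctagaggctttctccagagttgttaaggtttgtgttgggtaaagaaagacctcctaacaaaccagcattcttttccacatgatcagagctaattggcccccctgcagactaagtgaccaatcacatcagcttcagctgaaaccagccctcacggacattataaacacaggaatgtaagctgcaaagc
Kcne2 (chr16:92292139-92292388, plus strand): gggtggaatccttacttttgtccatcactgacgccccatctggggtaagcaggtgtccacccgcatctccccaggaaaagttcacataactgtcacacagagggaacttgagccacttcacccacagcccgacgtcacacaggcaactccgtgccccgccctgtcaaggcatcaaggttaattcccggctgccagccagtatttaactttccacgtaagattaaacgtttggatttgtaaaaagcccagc
Mfrp (chr9:44101520-44101728, plus strand): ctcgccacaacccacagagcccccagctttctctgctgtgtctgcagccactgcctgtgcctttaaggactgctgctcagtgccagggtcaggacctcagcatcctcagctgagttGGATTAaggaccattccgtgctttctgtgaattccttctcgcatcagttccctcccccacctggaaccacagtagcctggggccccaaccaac
Cldn2 (chrX:139800558-139800807, plus strand): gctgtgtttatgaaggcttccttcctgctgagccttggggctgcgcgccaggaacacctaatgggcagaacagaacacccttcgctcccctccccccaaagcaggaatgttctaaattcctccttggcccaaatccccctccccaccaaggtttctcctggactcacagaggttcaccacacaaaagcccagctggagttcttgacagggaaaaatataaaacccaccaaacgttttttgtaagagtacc
The promoter table held 7 promoters for 6 of the 10 genes. The OTX motif was found in 1 of these 7, that of Mfrp, where it lies on the minus strand (GGATTA), and in 6.25% of the 32851 promoters of the table. The forkhead motif TGTTTAC was found in 0 of the 7 and in 3.17% of all promoters. The RFX motif GTTGCCA was also found in 0 of the 7, against 3.66% of all promoters. These windows are short, and a match or its absence describes only the letters within them.

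All 10 transcripts had the same order of their 4 highest libraries. WT female 2 was highest, then AS female 2, then WT female 1, then AS male 2. Only 199 of the 13951 genes of the table (1.43%) had these 4 libraries on top in any order. The range from lowest to highest library was 3.87 to 9.38 over the 10 genes, against a median range of 0.47 over all genes, and 2.70% of all genes had a range of 2 or more. The same 4 libraries carry the numbers 7, 1, 2 and 3 at the start of their titles, and the labels do not say what these numbers stand for. They fall in 3 of the 4 groups and none is a WT male. In bulk tissue, fewer choroid plexus cells and less RNA per cell cannot be told apart.

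**Figure D1:**
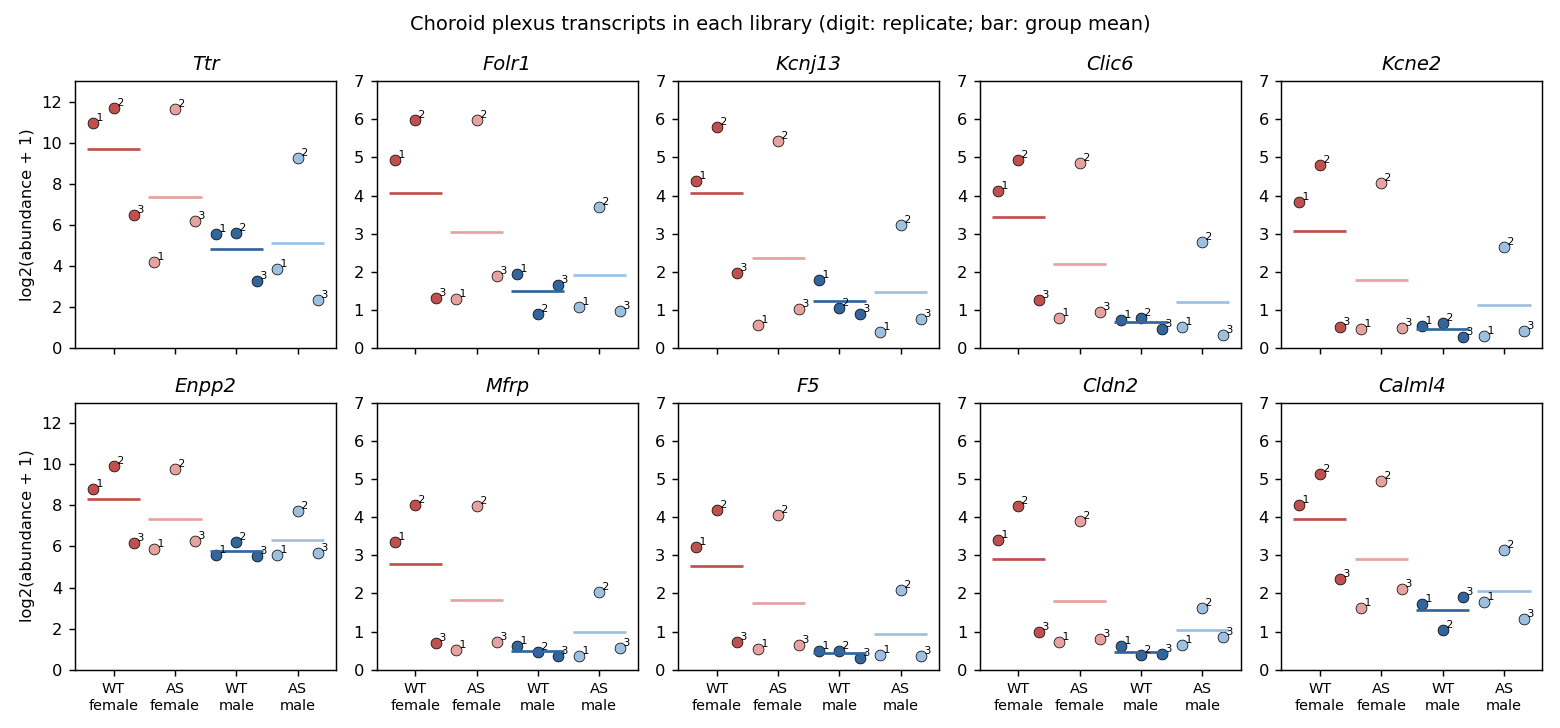
Level of each of the 10 transcripts, as log2(abundance + 1), in each of the 12 libraries; points are libraries, the digit is the replicate, and the bar is the mean of the 3 libraries of a group. In every panel WT female 2, AS female 2, WT female 1 and AS male 2 are the 4 highest points, in that order, and the panels for Ttr and Enpp2 have a taller axis.

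Ttr encodes transthyretin, the carrier of thyroxine and, with retinol-binding protein, of retinol, and the choroid plexus secretes it into the cerebrospinal fluid. The gene lies on the plus strand of chromosome 18 (20665280 to 20674321). In WT females Ttr was at 10.94, 11.71 and 6.49 in replicates 1 to 3, and in AS females at 4.19, 11.66 and 6.17. In WT males it was at 5.57, 5.61 and 3.27, and in AS males at 3.83, 9.25 and 2.33. The groups overlapped, and within WT females, AS females and AS males the libraries lay far apart. Its range of 9.38 was the widest of all genes of the table. In abundance it went from 4.02 in AS male 3 to 3350 in WT female 2, an 832-fold span. By rank within a library it was the 14th highest gene in WT female 2 and in AS female 2, and the 10960th in AS male 3.

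Folr1 encodes folate receptor alpha, which carries folate across the epithelium. It was at 4.93, 5.99 and 1.31 in WT females and at 1.28, 5.97 and 1.89 in AS females. In males it was at 1.95, 0.89 and 1.66 in WT and at 1.09, 3.70 and 0.97 in AS. AS male 2 stood 1.75 above WT male 1, the next library down, while the 8 lowest libraries together spanned 1.06.

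The channel genes showed the same steps. Kcnj13 encodes the inward rectifier potassium channel Kir7.1 of the apical membrane, and it was at 4.39, 5.80 and 1.97 in WT females and at 0.60, 5.44 and 1.03 in AS females. In males it was at 1.78, 1.05 and 0.89 in WT and at 0.43, 3.22 and 0.76 in AS. Its range of 5.38 was the widest after Ttr within the set. Kcne2 encodes a small accessory subunit of voltage-gated potassium channels. It was at 3.83, 4.81 and 0.55 in WT females, at 0.49, 4.34 and 0.52 in AS females, at 0.57, 0.65 and 0.29 in WT males and at 0.32, 2.65 and 0.44 in AS males. Its 8 lowest libraries lay within 0.36 of each other and at least 2.00 below AS male 2. Clic6, a member of the chloride intracellular channel family, was at 4.12, 4.94 and 1.26 in WT females, at 0.80, 4.85 and 0.94 in AS females, at 0.75, 0.78 and 0.51 in WT males and at 0.56, 2.77 and 0.34 in AS males.

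The secreted and membrane proteins split by their floor. Enpp2 encodes autotaxin, the secreted enzyme that makes lysophosphatidic acid, and oligodendrocytes also make it. It was at 8.79, 9.90 and 6.19 in WT females, at 5.89, 9.78 and 6.27 in AS females, at 5.57, 6.22 and 5.53 in WT males and at 5.56, 7.73 and 5.68 in AS males. Its 8 lowest libraries therefore stayed between 5.53 and 6.27, and its range of 4.37 rose from that floor. The mean of 12 oligodendrocyte genes was 6.32 in AS female 3, 6.27 in WT male 2, 6.07 in AS female 1 and 5.68 in WT female 3, where Enpp2 was at 6.27, 6.22, 5.89 and 6.19. In AS male 3, AS male 1, WT male 3 and WT male 1 the oligodendrocyte mean was 5.93, 5.69, 5.55 and 5.47. Enpp2 was at 5.68, 5.56, 5.53 and 5.57 there. The part of oligodendrocytes in the Enpp2 level was not tested. Mfrp, a membrane frizzled-related protein best known from the retinal pigment epithelium, was at 3.35, 4.31, 4.28 and 2.03 in WT female 1, WT female 2, AS female 2 and AS male 2, and between 0.35 and 0.73 in the other 8. F5, coagulation factor V, was at 3.22, 4.19, 4.06 and 2.09 in those 4 libraries and between 0.32 and 0.72 in the rest. Neither gene exceeded 0.73 in any of those 8 libraries.

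Cldn2 encodes claudin-2, a tight junction protein that forms pores for small cations. It was at 3.39, 4.29 and 0.99 in WT females, at 0.72, 3.90 and 0.80 in AS females, at 0.62, 0.38 and 0.40 in WT males and at 0.65, 1.61 and 0.86 in AS males. Its step from AS male 2 down to the next library was the smallest of the set, 0.62, about the same as the 0.61 spanned by its 8 lowest libraries. Calml4 encodes a calmodulin-like protein of the microvillar brush border. It was at 4.32, 5.12 and 2.39 in WT females, at 1.63, 4.94 and 2.12 in AS females, at 1.71, 1.05 and 1.90 in WT males and at 1.77, 3.13 and 1.32 in AS males. With a step of 0.74 and a spread of 1.34 among the 8 lowest libraries, Calml4 separated those libraries less clearly than Kcne2 or Folr1 did.

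To compare the steps between genes, each abundance was set on a scale from 0 in the gene's lowest library to 100% in WT female 2, which removes the gene's floor. On it AS female 2 had a median of 91.0% over the 10 genes, from 70.7% for Kcne2 to 98.0% for Folr1. WT female 1 had a median of 48.2%, from 36.0% for Kcnj13 to 58.4% for Ttr. AS male 2 had a median of 18.0%, from 9.57% for Cldn2 to 20.5% for Calml4. The bands of these 3 libraries did not overlap over the 10 genes. Because the genes were chosen for their joint variation over these libraries, this describes the set only. Genes outside it, such as Prlr and Rdh5 below, left these bands. WT female 3 followed with a median of 2.76%, from 0.887% for Kcne2 to 9.72% for Calml4. Kcnj13, Kcne2 and Cldn2 were the genes in which AS female 2 fell furthest below WT female 2, at 76.9%, 70.7% and 74.4%. If the deposited values are in base 2, a reading that the sources used here leave possible, the medians become 93.1% for AS female 2, 57.1% for WT female 1 and 26.6% for AS male 2.

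**Figure D2:**
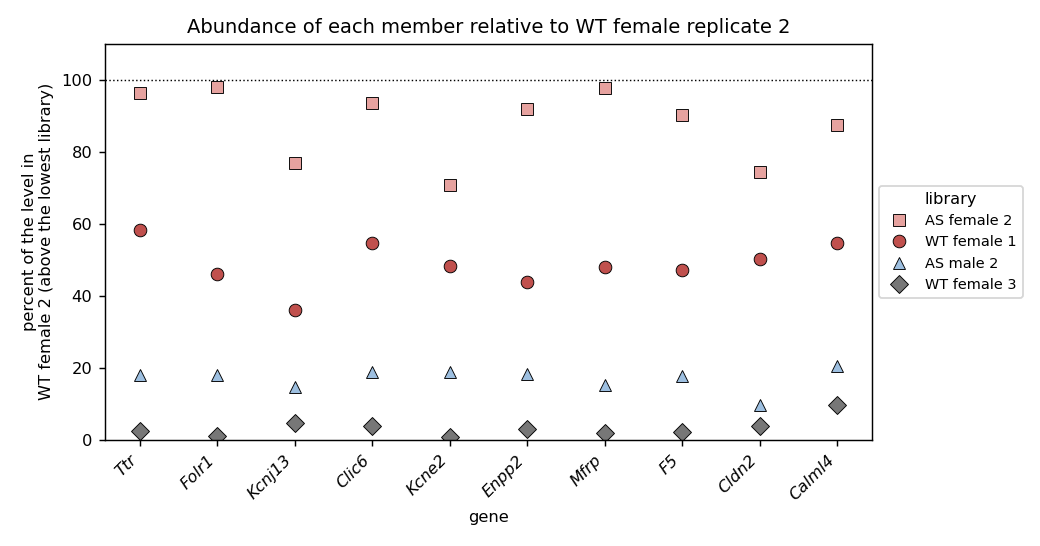
Abundance of each gene (x axis) in 4 libraries, in percent of its level in WT female 2 after subtraction of its lowest library (y axis); the dotted line is WT female 2. AS female 2 lies between 70.7% and 98.0%, WT female 1 between 36.0% and 58.4%, AS male 2 between 9.57% and 20.5%, and WT female 3 at 9.72% or lower.

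Taking as a threshold a level at least 1 log2 unit above the gene's own median, all 10 genes reached it in WT female 1, WT female 2 and AS female 2. In AS male 2 there were 9, and Cldn2 was the gene that was not reached. In each of the other 8 libraries the count was 0 of 10. With 4 of 12 libraries high in every gene, this threshold largely restates that order. It is also no limit of expression, since Ttr in WT female 3, at an abundance of 88.6, and Enpp2 in all of the 8 counted as not reaching it. Among those 8 libraries the order was less uniform. WT female 3 came next after the 4 high libraries for 6 of the 10 genes, and the lowest library was a male one for all 10, WT male 3 for 4 of them, WT male 2 for 3, AS male 3 for 2 and AS male 1 for 1.

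On this scale Ttr kept a wider spread among the 8 lower libraries than the other genes did. It spanned 4.16 there, against 0.36 for Kcne2 to 1.54 for Kcnj13 in the other 9. Several of these lay near the floor, Kcne2 with an abundance of 0.225 in WT male 3 to 0.566 in WT male 2. The added constant of 1 limits the span that such low values can show, so whether they followed Ttr cannot be read from this contrast. WT female 3 (6.49) and AS female 3 (6.17) were highest of the 8 for Ttr, and the medians of the other 9 genes in these libraries were 1.26 and 0.94. AS male 3 was lowest for Ttr at 2.33, with a median of 0.76 for the other 9. The ratio of Ttr abundance to that of each other gene was followed over the libraries. In WT female 1, WT female 2, AS female 2 and AS male 2 it varied least for Clic6, at 120, 113, 116 and 104, and most for Cldn2, from 180 to 296, and Kcnj13, from 61.0 to 98.1. Elsewhere the ratio was between 15.1 and 77.7 for Clic6, between 4.96 and 161 for Cldn2 and between 5.83 and 67.7 for Kcnj13. For Kcne2 it was 11.3 to 191 elsewhere and 115 to 168 in the 4 high libraries. For Folr1 it was 3.99 to 59.6 and 50.5 to 66.6. The ranges thus overlapped for Kcnj13, Kcne2 and Folr1, and for the remaining genes the ratio was lower elsewhere. Many of these ratios divide by an abundance near the floor, such as 0.266 for Clic6 in AS male 3, and are uncertain. For Enpp2 the ratio was 2.86 to 4.42 in the 4 high libraries and 0.0803 to 1.23 in the other 8.

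**Figure D3:**
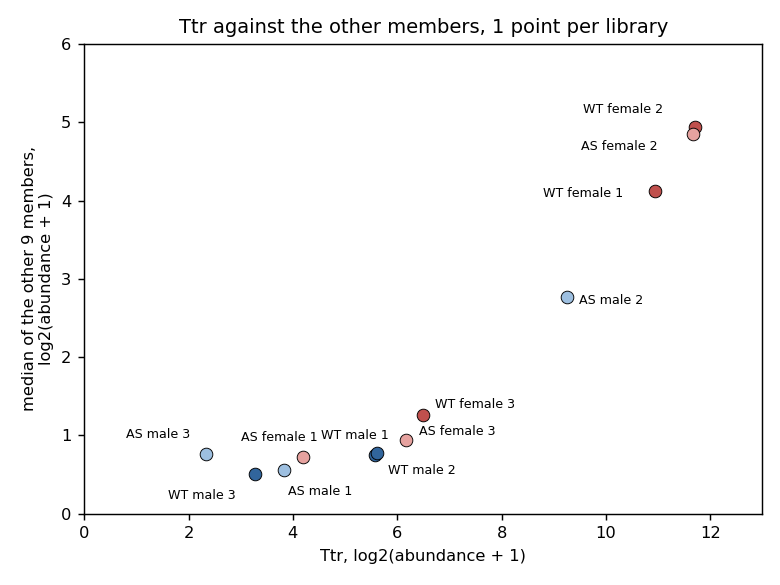
Level of Ttr (x axis) against the median level of the other 9 genes (y axis), both as log2(abundance + 1), with 1 point for each of the 12 libraries, coloured by group. Up to a Ttr level of 6.49 the median of the other genes stays at 1.26 or lower, and above it AS male 2, WT female 1, AS female 2 and WT female 2 rise to 2.77, 4.12, 4.85 and 4.94.

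Genes outside the set with the most similar profile were sought among the 342 genes with a symbol and a range of at least 2. Profiles were scaled from 0 to 1 over the 12 libraries, and likeness was the mean absolute difference from the mean profile of the set. The 10 closest, at 0.037 to 0.068, were Otx2, 1500015O10Rik, Col8a1, Krt18, Wdr86, Kl, Ace, Steap1, Sulf1 and Slc2a12. The set's own genes lay at 0.021 for Clic6 to 0.061 for Calml4, and Ttr at 0.14. Of the 10 closest, 7 stood on the list of other choroid plexus genes described next, as did 19 of the 342 candidates. That list was chosen with earlier results of these data known, so the overlap is a description and no separate support. Otx2, a homeodomain transcription factor of the choroid plexus and retinal pigment epithelium, was at 3.17, 4.16 and 0.83 in WT females, at 0.59, 3.78 and 0.91 in AS females, at 0.44, 0.76 and 0.61 in WT males and at 0.78, 2.23 and 0.32 in AS males. Its 4 highest libraries came in the same order as in the set, to which it was matched by profile. 1500015O10Rik ran from 1.14 in AS female 1 to 6.24 in WT female 2. Ace, the angiotensin-converting enzyme, ran from 1.87 in AS male 1 to 4.59 in WT female 2. With a distance between ranks in place of the scaled profiles, 3 of the 10 names were kept, or 4 where genes tied for a place are counted.

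A list of 26 other choroid plexus epithelium genes had 24 in the table. Of these, 19 had a range of at least 2 and 20 had the same 4 highest libraries. The exceptions were Slc29a4, Rdh5, Cox8b and Perp. The 8 widest, with ranges of 3.15 to 3.84, were Otx2, Kl, Prlr, Aqp1, Slc4a5, Steap1, Sostdc1 and Rdh5. Aqp1, the apical water channel, was at 3.73 in WT female 2, 3.41 in AS female 2, 2.42 in WT female 1 and 1.26 in AS male 2, and at 0.64 or lower elsewhere. Kl, the ageing-related hormone co-receptor klotho, reached 5.73 in WT female 2 from a lowest level of 2.19. Prlr, the prolactin receptor, departed from the common steps. It was higher in WT female 1 (4.38) than in WT female 2 (4.29), which is 106% on the percent scale, where the 10 genes of the set lay between 36.0% and 58.4%. In AS male 2 it stood at 9.97%. Rdh5, a retinol dehydrogenase, was highest in AS female 2 (4.24), at 138% of WT female 2.

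Genes of the pathways that the set serves varied less. Of 15 ion transport genes of fluid secretion, 3 shared the 4 highest libraries, and the list mean ran only from 5.34 to 5.72. Car14, a membrane carbonic anhydrase, ran from 1.74 to 3.79 with its highest level in WT female 2. Slc12a2, the sodium-potassium-chloride cotransporter NKCC1, ran from 3.59 to 4.58 with its highest level in AS female 2. Slc4a2, an anion exchanger, was at 4.79 in WT female 2, 4.60 in AS female 2 and 4.29 in WT female 1, and at 3.37 in AS male 2, below WT male 3 at 3.95. Of 14 genes of thyroid hormone and retinol handling, 1 had the same 4 highest libraries: Slco1c1, a thyroxine transporter, from 4.09 to 5.29. Of 14 genes of folate handling it was likewise 1, Ggh, which trims the glutamate tail of folates, from 2.97 to 3.88. Of 10 genes of lysophosphatidic acid signalling it was 0, and their mean ran from 3.95 to 4.14.

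Markers of other cells were set beside the choroid plexus genes. The mean of 14 motile cilium and ependyma genes ran from 1.72 in WT male 2 to 2.80 in WT female 2, and 4 of the 14 had the same 4 highest libraries, Foxj1 among them (1.58 to 2.92). In WT female 1, WT female 2, AS female 2 and AS male 2 that mean was 2.77, 2.80, 2.61 and 2.54, and in AS female 3 it was 2.49. The mean of 14 fibroblast genes ran from 2.51 in AS female 3 to 4.15 in WT male 1, and 0 of the 14 had the same 4 libraries on top. The 4 widest of that list were not alike. Ptgds (7.53 to 10.68) was highest in WT male 1 and Ogn (0.65 to 3.66) in WT female 3. Igf2 (3.47 to 6.37) and Igfbp2 (3.50 to 6.27) were highest in AS female 2 and next in WT female 2, and Igfbp2 then in WT female 1. The mean of 5 blood genes ran from 5.14 to 6.67 and was highest in AS male 1. Oligodendrocyte genes spanned 0.84, endothelial genes 0.43, microglial genes 0.30, hippocampal neuron genes 0.27 and astrocyte genes 0.15, with 0 genes of these 5 lists sharing the 4 highest libraries. The mean of the 14 hippocampal neuron genes lay between 5.81 and 6.08, and Snap25, a synaptic protein of all neurons, between 10.00 and 10.28. Single genes of that list varied more and in opposite directions. Wfs1, a marker of CA1 neurons, ran from 3.81 in WT female 1 to 5.75 in WT male 2, Grp from 4.52 in WT male 2 to 6.07 in WT female 3, Fibcd1 from 4.19 in WT male 2 to 5.62 in AS female 3, and Trhr from 1.96 in AS female 3 to 3.52 in WT female 3. The part of ependyma in the level of the choroid plexus genes was not tested.

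**Figure D4:**
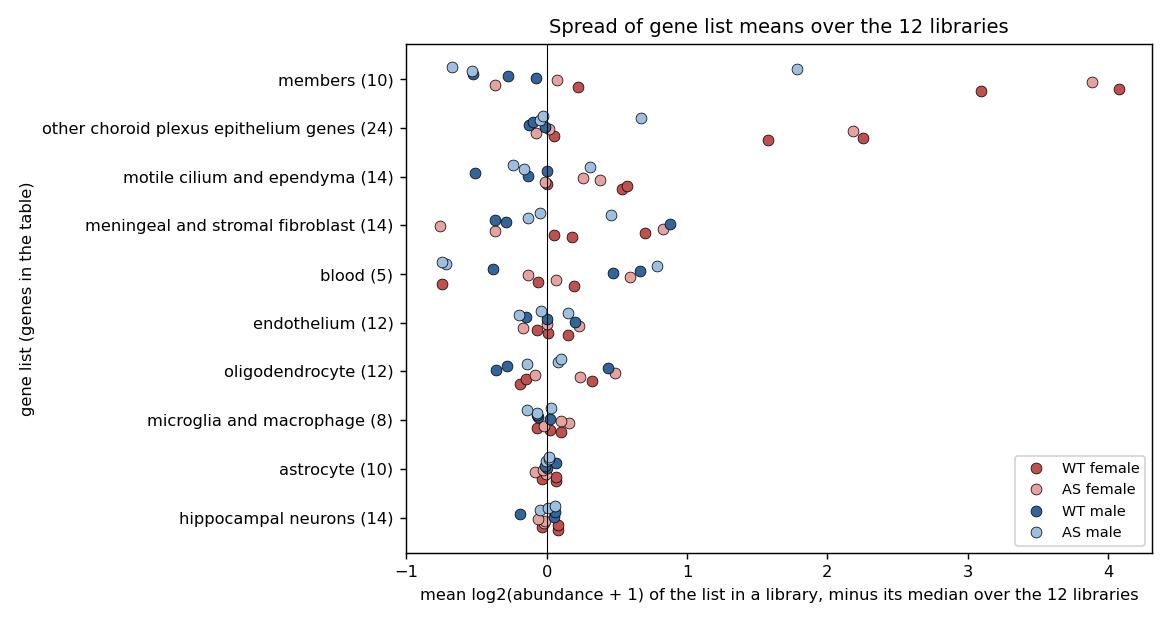
Mean log2(abundance + 1) of each gene list (y axis, with the number of genes in the table; "members" are the 10 choroid plexus genes) in each of the 12 libraries, minus the median of that list mean over the libraries (x axis); colours are the groups. The means span 4.75 for the 10 genes, 2.38 for 24 other choroid plexus genes, 1.07 for cilium genes and 0.27 for hippocampal neuron genes.

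None of the 10 genes was called for genotype, whether in females, in males or over both sexes. Differences were tested with limma over all 13858 genes with a mean abundance of at least 1, and the threshold for a call was 0.05 on the p adjusted by Benjamini and Hochberg's method. All 10 genes passed that filter, but only 5 of them would pass without their 4 highest libraries. In females 0 genes were called (0% of those tested), against 438 at an unadjusted p under 0.05. Ttr had a mean of 9.71 ± 2.82 (SD, n = 3) in WT females and 7.34 ± 3.87 (SD, n = 3) in AS females, and the limma difference of -2.37 ± 2.09 (SE) had a 95% interval from -6.95 to 2.22. The other 9 differences ran from -1.70 ± 1.25 for Kcnj13 to -0.95 ± 1.02 for Mfrp. All 10 were below 0, beside 48.4% of all genes. Their median was -1.07 beside 0.005 over all genes, and the adjusted p was 1.00 for each. WT females held 2 of the 4 high libraries and AS females 1. The Ttr difference was -1.76 without WT female 1, -1.37 without WT female 2, -0.80 without AS female 1, and -4.53 without AS female 2 (adjusted p = 0.891). Folr1 went from -1.03 to -0.07 without WT female 2. In limma 0 of the 10 genes had an unadjusted p under 0.05 in females. Without AS female 2 it was 9 of 10, beside 761 of all 13837 genes tested in that fit. The 10 genes vary together, so these are not separate results. With the 4 high libraries left out the Ttr difference was -1.30. In that fit WT female 3 was the only WT female library, so the WT female group had no replicate. Without WT female 1 the 10 differences ran from -1.76 for Ttr to -0.61 for Folr1.

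In males 0 genes were called (0% of those tested), with 890 at an unadjusted p under 0.05. For the 10 genes the adjusted p in limma ran from 0.939 to 0.986. Over all genes 47.6% of the male differences were below 0. All 10 differences of the set were above 0, from 0.23 ± 1.25 for Kcnj13 to 0.63 ± 1.17 for Kcne2. Their direction rested on AS male 2. Without it 9 of the 10 were below 0, Ttr at -1.73 and Kcnj13 at -0.65, and Cldn2 alone stayed above at 0.29. Without WT male 3 the Ttr difference also turned, to -0.45. Over both sexes 0 genes were called (0%), 741 had an unadjusted p under 0.05, and the 10 differences ran from -1.02 for Ttr to -0.22 for Enpp2, with adjusted p from 0.976 to 0.989 in limma. The difference between the male and the female genotype effect was 2.69 ± 2.96 (SE) for Ttr and 1.45 to 1.93 for the others, with an adjusted p of 0.987 for each in limma. For that difference 0 genes were called (0%) and 522 had an unadjusted p under 0.05. Of the 10 genes 0 were among these. Without AS female 2 it was 8 of 10, beside 743 of all 13837 genes tested in that fit. Without WT female 1 the differences ran from -0.72 for Ttr to -0.08 for Mfrp over both sexes, and the interaction from 1.02 for Folr1 to 2.08 for Ttr.

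None of the 10 genes passed the threshold for the difference between males and females. Of the 4 libraries that are highest for all 10 genes 3 are female, so the sign and size of these differences follow where those libraries fall, and the 10 genes are not separate evidence of a direction. Over both genotypes 5 genes were called (0.0361% of those tested), Eif2s3y, Ddx3y, Uty and Kdm5d on the Y chromosome and Kdm5c on the X, and 958 had an unadjusted p under 0.05 (6.91%). The differences of the 10 genes, male minus female, were all below 0, beside 47.7% of the differences over all genes. That of Ttr was -3.55 ± 1.48 (SE), with a 95% interval from -6.79 to -0.31 and an adjusted p of 0.699. The others ran from -1.87 ± 0.79 for Clic6 to -1.54 ± 0.69 for F5. The median was -1.68 beside 0.005 over all genes. Adjusted p ran from 0.695 for Cldn2 and Calml4 to 0.743 for Folr1 and Kcne2, and 7 of the 10 had an unadjusted p under 0.05 in limma, the lowest 0.0213 for Calml4. That number moved with the settings of the fit and with single libraries. With all 12 libraries it was 2 of 10 under a robust prior (928 of all 13858 genes). Under library quality weights it was 10 of 10 (1638 of 13858). Without WT female 1 the differences ran from -3.24 for Ttr to -1.41 for Kcne2, with adjusted p from 0.857 to 0.889. An unadjusted p under 0.05 was seen in 1 of 10 genes without WT female 1, the library without Xist (799 of all 13840 genes). It was 0 without WT female 2 (771 of 13837) and 2 without AS female 2 (752 of 13837). Without AS male 2 it was 10 (1647 of 13844). Leaving out a lower library moved the number as well, from 1 without AS male 1 (708 of 13854) or AS male 3 (807 of 13855) to 10 without WT female 3 (1067 of 13839) or AS female 1 (879 of 13842). The lowest adjusted p of any of the 10 genes under any setting was 0.332, without AS male 2. Of the 23 other choroid plexus genes tested 0 were called, and all 23 differences were below 0, with a median of -1.03. Of the 24 genes of that list in the table, 20 had the same 4 highest libraries. Their shared sign is thus no separate evidence of a direction either.

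**Figure D5:**
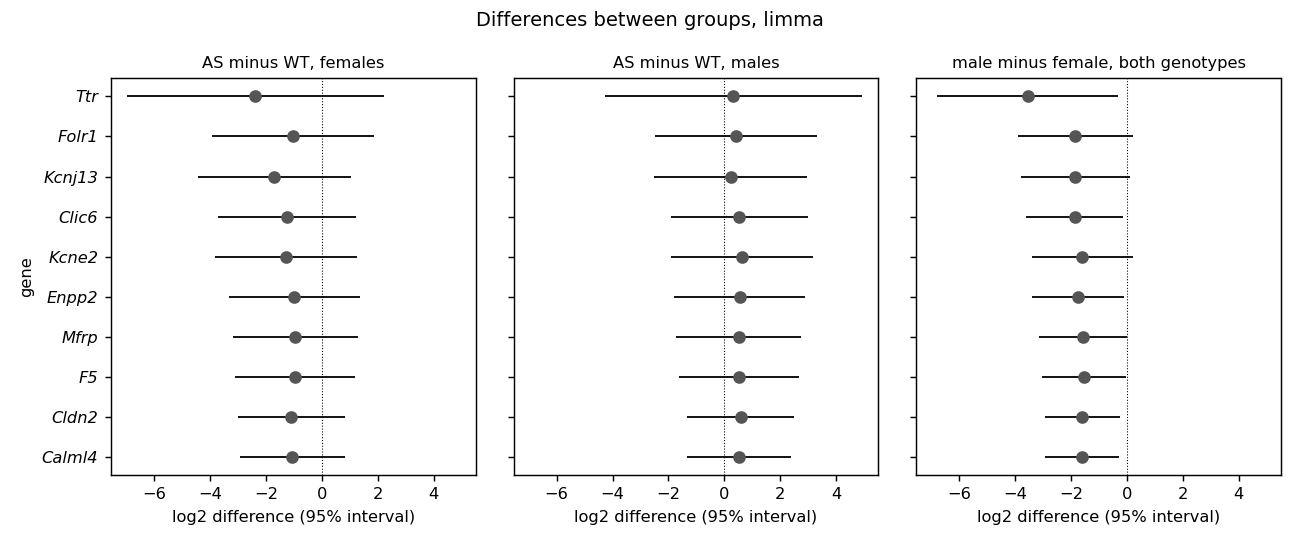
Log2 differences of the 10 genes in limma (points) with their 95% intervals (lines), for the AS effect in females (left), the AS effect in males (middle), and male minus female over both genotypes (right). All points lie below 0 in the left and right panels and above 0 in the middle panel, from -2.37 to -0.95, from -3.55 to -1.54 and from 0.23 to 0.63, and no gene passed an adjusted p of 0.05.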

How the data were processed

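Per the labels, polyadenylated RNA was sequenced as 12 libraries, and the design text gives 3 mice per group. The submitters' processing notes name Trimmomatic, Bowtie2, RSEM and GRCm38 (mm10), with no versions. The values deposited by the authors were read as the natural log of (abundance + 1). The log base, the abundance type, the normalization and the filter are not given in the sources used here. Depth is unknown, so no counting error is given. The table has 13951 identifiers, 13735 of them with a symbol. Values were divided by the natural log of 2, and 93 genes averaging an abundance below 1 were not tested. A model of the 4 group means was fitted in R 4.3.3 by limma 3.58.1 over the 12 libraries, with a variance trend and 8 residual degrees of freedom. The p-values set each difference against the spread between libraries and are Benjamini-Hochberg adjusted over all genes tested. For this, limma draws each gene's variance toward that of genes of similar level. For the widely varying genes of the set this gives narrower intervals and lower p-values than their own spread alone would. The fit was tested on simulated data. Coordinates and overlaps come from the GENCODE annotation of GRCm38, and promoters from RefSeq.

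Genes named are all 10 of the set, the 10 with the most similar profile among genes with a range of at least 2, up to 4 of each list with the widest range (8 for other choroid plexus genes) and sex-linked genes. Ube3a, genes overlapping or lying between genes of the set, Foxj1, Snap25, and the exceptions of a list were added after their values were seen. The genes of the set and the lists were chosen with earlier results of these data known. Alternatives were added constants of 0.1 and 5, no filter, a mean abundance of at least 5, base 2, only the groups compared, library quality weights, a robust prior, each library left out, and all 4 high libraries left out together.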

Additional observations from a re-analysis of the deposited data

How the results depend on the processing

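None of the 10 genes was called in any contrast under any alternative in which it was tested. With a mean abundance of at least 5, only 7 of the 10 were tested. It was also 7 in males with only the groups compared, and 5 with the 4 high libraries left out. The lowest adjusted p was 0.718 for genotype in females, 0.738 for genotype in males and 0.332 for sex. Leaving out 1 library at a time gave counts over all genes of 4 to 8 for sex, 0 to 1 for the interaction, and for genotype 0 to 1 within females, 0 to 1 within males and 0 to 2 when averaged over sex. Those above 0 for genotype were Snord15b without WT female 1, Gm24409 without WT female 3, Gm24166 without AS female 1, and Snora21 and Tmsb15b2 without WT male 2. The count for sex was 3 with a mean abundance of at least 5. With the 4 high libraries left out, WT female 3 was the only WT female library, so no count over all genes is given for that fit. The male genotype difference turned below 0 without AS male 2 in Ttr (-1.73), Kcnj13 (-0.65), Folr1 (-0.47), Clic6 (-0.23), Enpp2 (-0.15), Kcne2 (-0.13), F5 (-0.06), Mfrp (-0.01) and Calml4 (-0.01). Without the 4 highest libraries these values were the same for Ttr, Kcnj13, Folr1, Enpp2 and Calml4, the 5 genes left by the filter, since AS male 2 is the male library among the 4. In that fit the female difference of Folr1 turned above 0 (0.28), with WT female 3 alone standing for WT females. Library quality weights turned the male difference below 0 in Ttr (-1.22), Kcnj13 (-0.44), Folr1 (-0.32) and Clic6 (-0.02), and leaving out WT male 3 did so in Ttr (-0.45). The cause was not tested. Over the libraries left out in turn, the male difference reached at most 1.72 in Ttr, 1.04 in Kcne2, 0.98 in Clic6, 0.93 in Enpp2, 0.90 in Folr1 and Calml4, 0.82 in Mfrp, 0.80 in F5 and 0.75 in Kcnj13. The ranges of the 10 genes ran from 4.40 to 9.66 with an added constant of 0.1, from 2.09 to 8.54 with 5 and from 2.68 to 6.50 with base 2, and 12 of these ranges, all with an added constant, moved by more than the replicate spread while 18 did not. Of the differences of single genes, 573 kept their direction and their side of the threshold. No paired analysis was possible because replicates were numbered in accession order, which links no samples across groups. Depth is unknown, so low levels cannot be told from background.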
